A study of Rattus norvegicus with 4 samples.

Results

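The miR-181 family was examined in small RNA sequencing of rat serum exosomes (Exos), the nanoscale vesicles that cells release into the blood. The members were taken by name, as each listed arm of rno-miR-181a to rno-miR-181d. This gave 6 of the 243 miRNAs listed, of which 3 were guide strands (rno-miR-181a-5p, rno-miR-181b-5p and rno-miR-181d-5p) and 3 were passenger arms (miR-181a-1-3p, miR-181a-2-3p and miR-181c-3p). The other arms of these genes, miR-181c-5p among them, were not analysed here. The study sequenced 4 libraries of male Sprague Dawley rats. Of these, 2 carried the treatment label exercise (treadmill running for weeks) and 2 carried the label sedentary (no training). The series describes 20 rats in each group, but how many rats stand behind a library was not given, so p-values measure only the spread between libraries. The library titles begin with E where the label is sedentary and with N where it is exercise, which may conflict with the labels. Which group is which is therefore uncertain. The groups below follow the labels, and each direction and sign between them, for the family and for the miRNAs named beside it, would turn if they were exchanged.

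A microRNA precursor folds into a hairpin from which Dicer cuts a duplex; 1 strand, the guide, is usually kept in Argonaute and the other, the passenger, is usually degraded. The guide pairs with target messages mainly through its seed, bases 2 to 8. The miR-181 family is known from lymphocytes, where miR-181a tunes the sensitivity of the T cell receptor, from vascular endothelium, where miR-181b dampens NF-κB signalling, and from brain, where the family acts on survival proteins of the Bcl-2 group.

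All 6 members matched RefSeq (GRCr8) by name, with identical sequences. They are shown because the comparison of members turns on how alike they are, with bases 2 to 8 in capitals.
miR-181a-5p: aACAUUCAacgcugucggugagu
miR-181b-5p: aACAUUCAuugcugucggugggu
miR-181d-5p: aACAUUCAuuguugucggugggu
miR-181a-1-3p: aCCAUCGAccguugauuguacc
miR-181a-2-3p: aCCACCAAccguugacugu
miR-181c-3p: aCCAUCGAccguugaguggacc

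The guides shared the seed ACAUUCA, which no other listed miRNA carried. Counted from 1 at the 5′ end, miR-181b-5p differed from miR-181a-5p by A9U, C10U and A21G, and miR-181d-5p differed from miR-181b-5p by C12U alone. With 1 substitution between them, reads of miR-181b-5p and miR-181d-5p could have been split by the authors' counting, and the same holds for miR-181a-5p and miR-181c-5p, which lie 1 edit apart. The nearest listed sequence outside the family lay 7 edits from miR-181a-5p, 8 from miR-181b-5p and 9 from miR-181d-5p. Among the passengers, miR-181a-1-3p and miR-181c-3p shared the seed CCAUCGA and differed by U16G and U19G, while the seed of miR-181a-2-3p was found in no other listed miRNA.

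In GRCr8 the genes form 3 pairs: Mir181a-1 beside Mir181b1 on chromosome 13, Mir181a2 beside Mir181b2 on chromosome 3 and Mir181c beside Mir181d on chromosome 19. Mir181a2 and Mir181b2 lie inside the span of Nr6a1, which encodes an orphan nuclear receptor. The authors aligned to another assembly (mRatBN7.2), so no coordinates are given. Both miR-181a genes give the same miR-181a-5p, so its value cannot be assigned to either cluster, whereas the passengers tell the genes apart. The hairpin of Mir181a2 is printed to show how both listed arms lie in 1 precursor, with the arms in capitals and miR-181a-5p first.
Mir181a2 hairpin: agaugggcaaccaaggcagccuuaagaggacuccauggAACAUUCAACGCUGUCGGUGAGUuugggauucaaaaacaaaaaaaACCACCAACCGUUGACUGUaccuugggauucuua

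The values are reads scaled to a total of the library (RPM), a total that held more than the listed miRNAs' reads; the authors name them TPM. Each non-zero value was a whole multiple of the smallest in its library (within 1e-06), so this value was read as 1 read and the libraries held 20780612 to 22140315 reads in all, of which 649210 to 814439 fell on listed miRNAs. Intervals and floors below cover counting error only, since the reads carry no molecular identifiers.

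Both guides of the a/b clusters lay higher in each exercise-labelled library than in either sedentary-labelled library, 1.88-fold and 1.91-fold on the ratio of means, while the guide of the c/d cluster overlapped between the groups. No member passed the thresholds of the study (adjusted p under 0.05 and absolute log2 fold change over 1).

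miR-181a-5p was the most abundant member. It held 69.7 and 68.6 RPM in the exercise-labelled libraries and 33.5 and 40.0 RPM in the sedentary-labelled libraries, from 737 to 1531 reads. The groups did not overlap, and the exercise libraries lay within 1.02-fold of each other. The means were 69.1 ± 0.748 (SD, n = 2) and 36.8 ± 4.64 RPM (SD, n = 2), a 1.88-fold ratio of means. On the log2(RPM + 1) scale, which understates the change of low values, its log2 fold change was 0.90 (standard error 0.24, 95% interval 0.30 to 1.50, Benjamini-Hochberg adjusted p = 0.078 over the 178 tested miRNAs, limma). It was called when the values were rescaled to the sum of the listed miRNAs (1.16, adjusted p = 0.018 from limma) and without sedentary replicate 2 (1.02, adjusted p = 0.012 from limma). The adjusted p ranged from 0.012 to 0.53 over 13 alternatives.

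miR-181b-5p held 25.5 and 20.1 RPM in the exercise-labelled libraries and 13.7 and 10.2 RPM in the sedentary-labelled libraries. The groups again did not overlap, but the libraries within a group lay farther apart, 1.27-fold and 1.35-fold. The means were 22.8 ± 3.81 (SD, n = 2) and 11.9 ± 2.52 RPM (SD, n = 2), a 1.91-fold ratio of means. Its log2 fold change of 0.89 came with a standard error of 0.47 and a 95% interval of -0.26 to 2.04 (adjusted p = 0.28 from limma), and it was not called under any of the 13 alternatives.

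miR-181d-5p held 14.4 and 13.3 RPM in the exercise-labelled libraries, between the 8.72 and 16.9 RPM of the sedentary-labelled libraries. The sedentary libraries differed 1.94-fold from each other, more than the exercise libraries (1.08-fold). The means were 13.9 ± 0.778 (SD, n = 2) and 12.8 ± 5.81 RPM (SD, n = 2), and the log2 fold change was 0.17 (standard error 0.57, 95% interval -1.25 to 1.59, adjusted p = 0.89 from limma). The interval holds changes in either direction larger than that of miR-181a-5p. Without sedentary replicate 1 the log2 fold change was -0.27.

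**Figure D1:**
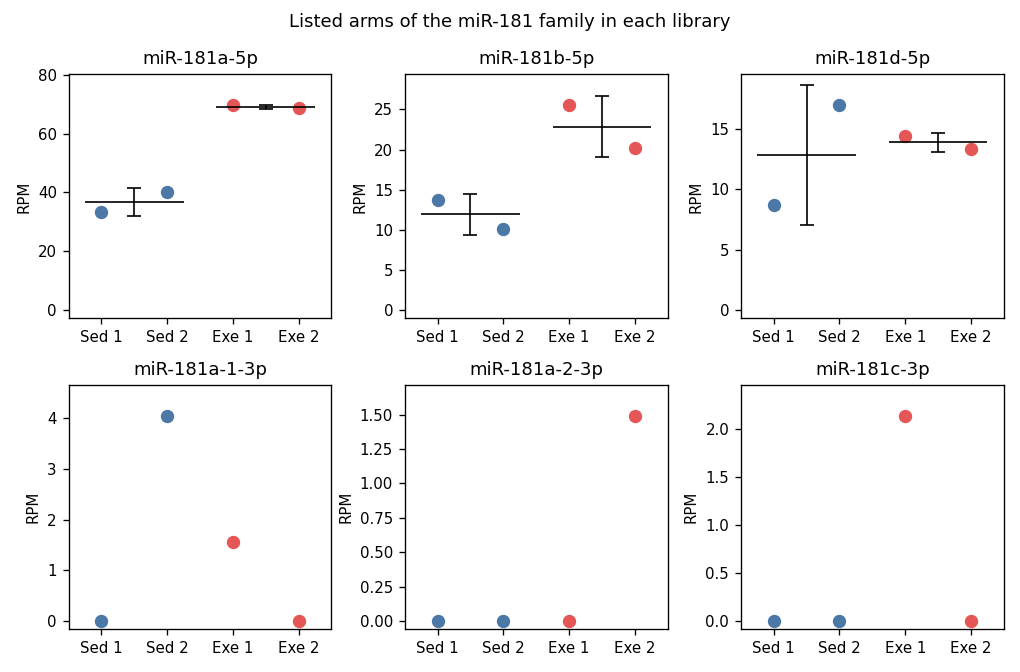
RPM of each listed arm (vertical axes, linear, a scale of its own per panel) in the 4 libraries, with Sed and Exe for the labels sedentary and exercise. Lines and bars in the upper panels are the mean and SD of 2 libraries. The exercise points lie above the sedentary points for miR-181a-5p and miR-181b-5p but between them for miR-181d-5p, and each passenger arm is at 0 in 2 or 3 libraries.

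Among the 4 members tested, 0 were called (0 also at an unadjusted p under 0.05 with the same fold threshold), against 7.87% of all tested miRNAs called and 21.9% at the unadjusted p. The values of 2 of the 4 did not overlap between groups and were higher with the exercise label, where 32% of all tested miRNAs did so, and 27.4% of the 164 above 0 in both groups, as these 4 were. In this design of 2 libraries a group, the smallest p of an exact two-sided permutation test is 0.333.

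**Figure D2:**
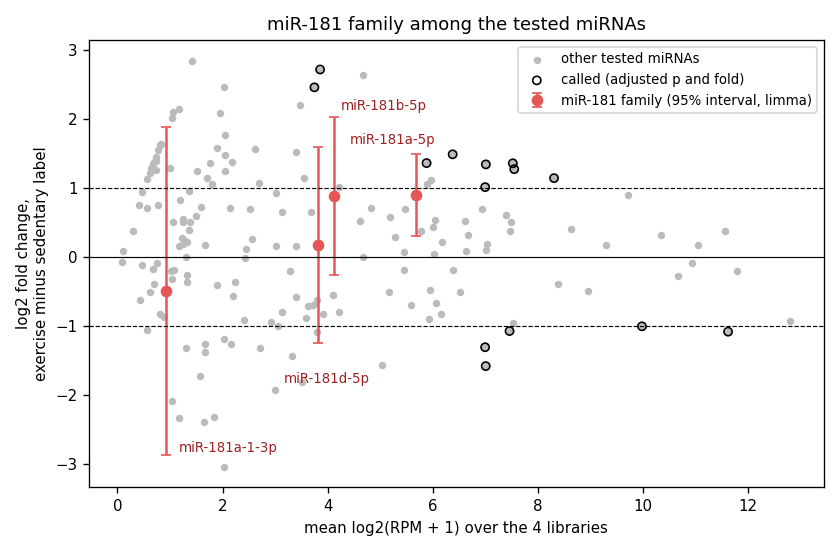
Log2 fold change (exercise minus sedentary label, vertical axis) against mean log2(RPM + 1) over the 4 libraries (horizontal axis) for the 178 tested miRNAs. Open circles are called miRNAs, red points are the 4 tested members with their 95% intervals from limma, and the dashed lines mark a fold change of 1 and -1. The interval of miR-181a-5p (0.30 to 1.50) lies above 0, and those of the other members cross it.

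The fold changes depend on the scale. The median log2 fold change of all tested miRNAs was 0.21, was 0.18 under median-of-ratios scaling, and was 0.44, a shift of 0.24, when values were rescaled to the sum of the listed miRNAs. The split of called miRNAs, 9 higher and 5 lower, was 5 and 9 under median-of-ratios scaling and 13 and 2 under the rescaling. Relative to the median of each scale, miR-181a-5p lay 0.69, 0.62 and 0.72 higher, in that order, and miR-181b-5p 0.68, 0.61 and 0.69. miR-181d-5p lay near the median on each scale, at -0.038, -0.099 and -0.022.

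As a share of the reads on listed miRNAs, all arms of the family together took 0.359% and 0.353% in the exercise-labelled libraries and 0.163% and 0.182% in the sedentary-labelled libraries. The groups did not overlap. The listed miRNAs summed to 31538 and 29323 RPM in the exercise-labelled libraries and to 34264 and 39192 RPM in the sedentary-labelled libraries. A smaller sum raises every share, and the median log2 fold change of all tested miRNAs on this scale was 0.44. miR-181a-5p alone took 0.221% (95% Wilson interval 0.210% to 0.232%) and 0.234% (0.223% to 0.246%) in the exercise-labelled libraries, and 0.0977% (0.0909% to 0.105%) and 0.102% (0.0954% to 0.109%) in the sedentary-labelled libraries. By level it ranked 42 and 41 among the listed miRNAs of the exercise-labelled libraries, and 53 and 51 in the sedentary-labelled libraries. In bulk serum Exos, fewer vesicles that carry a miRNA and fewer copies per vesicle cannot be told apart.

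The order of the guides was the same in 3 of 4 libraries. The guides are of equal length (23 nt), so their levels can be set side by side, although adaptor ligation favours some ends. miR-181a-5p exceeded miR-181b-5p in each library, by 2.44-fold to 3.94-fold, and miR-181d-5p by 2.36-fold to 5.15-fold. miR-181b-5p exceeded miR-181d-5p by 1.51-fold to 1.77-fold in 3 libraries, whereas in sedentary replicate 2 it was 0.599 times as abundant. The levels of miR-181b-5p and miR-181d-5p therefore did not keep 1 order across the libraries.

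Of the reads on the 3 guides, miR-181a-5p took 63.6% (95% Wilson interval 61.6% to 65.5%) and 67.2% (65.2% to 69.1%) in the exercise-labelled libraries. It took 59.9% (57.1% to 62.6%) and 59.6% (57.0% to 62.2%) in the sedentary-labelled libraries. miR-181d-5p took 13.2% and 13.1% in the exercise-labelled libraries but 15.6% and 25.2% in the sedentary-labelled libraries. The share of miR-181b-5p differed the other way between the sedentary libraries, 24.5% and 15.1%, against 23.3% and 19.7%. The sedentary libraries thus held nearly the same share of miR-181a-5p and divided the rest differently between the guides that 1 substitution separates.

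**Figure D3:**
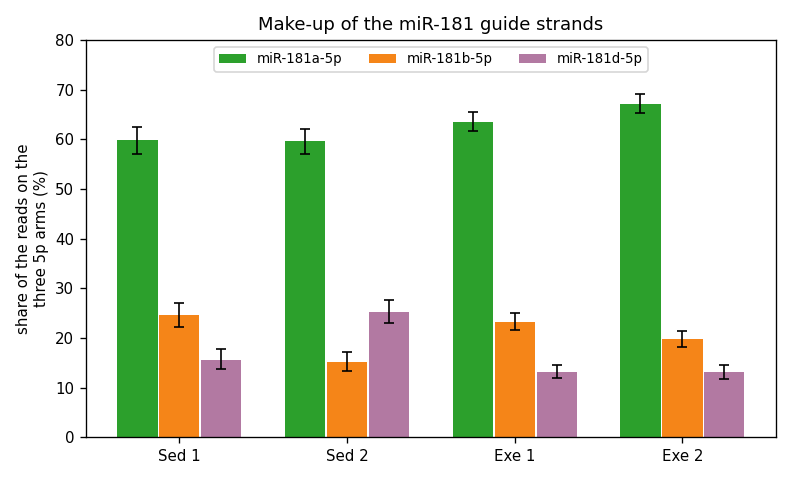
Share of the reads on the 3 listed 5p arms (vertical axis, %) taken by each guide in the 4 libraries, Sed and Exe standing for the labels. Bars start at 0 and error bars are 95% Wilson intervals of counting error. Sed 2 stands out with 25.2% for miR-181d-5p and 15.1% for miR-181b-5p.

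The log2 ratio of miR-181b-5p to miR-181a-5p asks whether guides of the same clusters moved alike. It was -1.41 and -1.72 in the exercise-labelled libraries and -1.23 and -1.88 in the sedentary-labelled libraries. The exercise values lay between the sedentary ones, with means of -1.57 ± 0.22 (SD, n = 2) and -1.55 ± 0.46 (SD, n = 2). The difference, exercise minus sedentary, was -0.013 (exact two-sided permutation p = 1), and its sign turned with a pseudocount of 0.1 (0.021) and without exercise replicate 2 (0.14) or sedentary replicate 1 (0.31).

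For miR-181d-5p against miR-181a-5p the log2 ratio was -2.20 and -2.28 in the exercise-labelled libraries and -1.83 and -1.19 in the sedentary-labelled libraries. These groups did not overlap, and the difference was -0.73 (exact two-sided permutation p = 0.333, the smallest this design can give). For miR-181d-5p against miR-181b-5p the groups overlapped, with a difference of -0.72 (exact two-sided permutation p = 0.667). After Benjamini-Hochberg adjustment over the 3 pairs compared, each exact permutation p was 1. No pair can pass a threshold of 0.05 in this design, so these p-values do not bear on whether guides of the c/d and a/b clusters differed in response.

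The passenger arms were scarce and were each at 0 in at least 2 libraries. Where a library had 0 reads, counting error alone still allows 3 reads (0.135 to 0.144 RPM). Libraries of the same label differed by more than that, as the reads below show. miR-181a-1-3p had 34 and 0 reads in the exercise-labelled libraries and 0 and 84 reads in the sedentary-labelled libraries, which is 1.55, 0, 0 and 4.04 RPM. Each group held a library with reads and a library without, and the log2 fold change was -0.49, with a standard error of 0.96 and adjusted p = 0.78 from limma. It was 0.18 without exercise replicate 2 and -1.66 without sedentary replicate 1.

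miR-181a-2-3p had 33 reads (1.49 RPM) in exercise replicate 2, and miR-181c-3p, the only listed arm of Mir181c, had 47 reads (2.14 RPM) in exercise replicate 1. Both were at 0 in the other 3 libraries and were not tested under the filter. Of the 243 listed miRNAs, 65 were above 0 in a single library. Without the filter, limma gave adjusted p = 0.46 for both.

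Of all reads on miR-181a arms, the passengers took 2.17% (34 of 1565 reads, 95% Wilson interval 1.56% to 3.02%) and 2.13% (33 of 1552 reads, 1.52% to 2.97%) in the exercise-labelled libraries. The shares were nearly equal, but all passenger reads came from miR-181a-1-3p in exercise replicate 1 and from miR-181a-2-3p in exercise replicate 2. In the sedentary-labelled libraries the share was 0 of 737 reads, which allows up to 0.407%, and 9.17% (84 of 916 reads, 7.47% to 11.2%). The sedentary libraries lay on either side of the exercise libraries, so the arm share did not separate the groups.

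**Figure D4:**
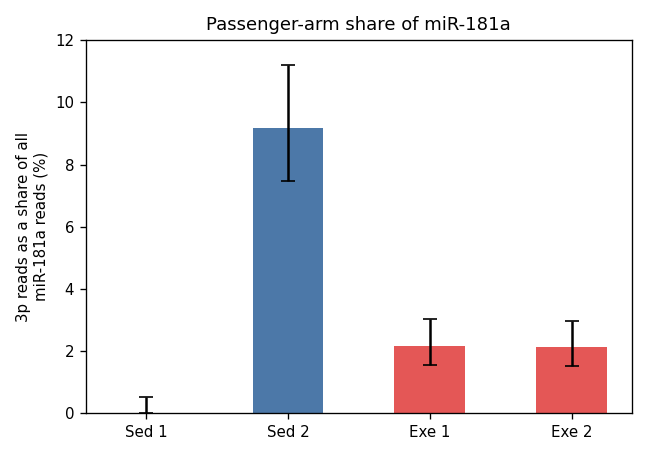
Reads on miR-181a-1-3p and miR-181a-2-3p as a share of all miR-181a reads (vertical axis, %) in the 4 libraries, Sed and Exe standing for the labels, with 95% Wilson intervals of counting error. The exercise libraries sit at 2.17% and 2.13%, between 0 and 9.17% in the sedentary libraries.

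miR-3570, which the values file under the miR-181 family but which is not an arm of miR-181a to d, is the exact reverse complement of miR-181a-1-3p, and its gene is the nearest miRNA gene to Mir181a-1 in GRCr8. It had 1 read in exercise replicate 1 and 0 in the other 3 libraries, so the strand opposite to miR-181a-1-3p was at the limit of detection.

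The pattern over the 4 libraries was set against that of the other 177 tested miRNAs by the Euclidean distance between log2(RPM + 1) profiles centred on their mean. Nearest to miR-181a-5p were miR-26b-5p (distance 0.14), miR-215 (0.19) and miR-182 (0.24). Of these miR-182, a miRNA of sensory and epithelial cells, was called, with a log2 fold change of 1.02 (adjusted p = 0.043 from limma). Nearest to miR-181b-5p were miR-532-5p (0.23), miR-191a-5p (0.23) and miR-155-5p (0.30). The last, a miRNA of activated lymphocytes, had 27 and 15 reads in the exercise-labelled libraries and 0 in both sedentary-labelled libraries. It passed the filter only through the exercise-labelled libraries, which fixed its direction. At such low values the log2(RPM + 1) scale understates its change, so its distance depends on that scale.

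Nearest to miR-181d-5p were miR-378a-3p (0.19), miR-192-5p (0.20) and miR-148b-3p (0.26). miR-192-5p, which is abundant in liver and kidney, held 115 and 88.9 RPM in the exercise-labelled libraries and 68.5 and 132 RPM in the sedentary-labelled libraries, the same order of libraries as for miR-181d-5p. The guides of the family were not each other's nearest neighbours. miR-181b-5p was number 16 in the order from miR-181a-5p (0.51), and miR-181d-5p was number 49 (0.86). With 4 libraries these distances are descriptions only.

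Marker lists of cells in which the family is known were followed beside the family. All 8 white cell miRNAs of the list were tested, 1 was called, higher in the exercise-labelled libraries (5.06% of all tested miRNAs were called so), and 5 did not overlap and were higher (32% of all tested miRNAs), with a median log2 fold change of 0.83 against 0.21 over all tested miRNAs. One of these, miR-155-5p, passed the filter only through the exercise-labelled libraries, which fixed its direction, and without it 4 of 7 did not overlap and were higher (27.4% of the tested miRNAs above 0 in both groups), with a median of 0.71. The summed level of the list was 304 to 307 RPM in the exercise-labelled libraries and 154 to 189 RPM in the sedentary-labelled libraries. miR-155-5p was at 0 in both sedentary libraries, miR-142-3p and miR-223-3p in sedentary replicate 2, and miR-142-5p in exercise replicate 1 and sedentary replicate 1. The called member, miR-150-5p of mature lymphocytes, held 139 ± 13.7 (SD, n = 2) against 49.2 ± 10.9 RPM (SD, n = 2), a log2 fold change of 1.49 (adjusted p = 0.025 from limma). miR-150-5p carried most of the difference in the summed level. miR-146a-5p overlapped between the groups, with 34.0 and 57.4 RPM in the exercise-labelled and 35.2 and 49.8 RPM in the sedentary-labelled libraries (log2 fold change 0.077). The summed white cell level was higher in the same libraries as miR-181a-5p and miR-181b-5p, and its part in their values was not tested.

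Of the 6 vascular endothelium miRNAs, 4 were tested and 0 called (7.87% of all tested miRNAs were called), with a median log2 fold change of -0.077. Their summed level was 3162 to 3553 RPM against 3255 to 4549 RPM, most of it miR-10a-5p with 3288 ± 275 (SD, n = 2) against 3835 ± 928 RPM (SD, n = 2). miR-126a-5p was at 0 in both sedentary libraries, so it too passed the filter only through the other group, and without it the median was -0.20. The more abundant arm, miR-126a-3p, held 67.5 and 62.6 RPM in the exercise-labelled libraries and 57.6 and 68.4 RPM in the sedentary-labelled libraries. Its groups overlapped, with a log2 fold change of 0.049 (adjusted p = 0.89 from limma). miR-221-3p was at 0 in sedentary replicate 1. Of the 7 brain miRNAs, 3 were tested and 0 called (7.87% of all tested miRNAs), with a median of 0.39. miR-128-3p, the most abundant of them, held 55.9 ± 9.77 (SD, n = 2) against 34.2 ± 7.63 RPM (SD, n = 2) and was higher without overlap between the groups (32% of all tested miRNAs), and the summed level was 53.1 to 65.9 against 32.9 to 43.6 RPM. miR-9a-5p was at 0 in sedentary replicate 1 and miR-129-5p in sedentary replicate 2, and neuronal miR-124-3p was not analysed here.

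Of the 5 red cell miRNAs, 3 were tested and 0 called (7.87% of all tested miRNAs), with a median of 0.37. miR-486, the most abundant miRNA of each library, held 5217 ± 697 (SD, n = 2) in the exercise-labelled libraries against 9958 ± 1703 RPM (SD, n = 2), with a log2 fold change of -0.93 and adjusted p = 0.043 from limma. The summed level of the list was 4806 to 5774 RPM against 8768 to 11312 RPM, nearly all of it miR-486. The other members did not share that direction: miR-16-5p held 8.42 and 8.67 against 0 and 1.97 RPM, and miR-144-3p and miR-144-5p had reads in 1 exercise-labelled library each (40 and 60) and 0 in the other 3. miR-451-5p held 54.0 and 70.4 RPM in the exercise-labelled libraries, between the 14.7 RPM of sedentary replicate 1 and the 148 RPM of sedentary replicate 2. Sedentary replicate 2 was thus the highest library for miR-451-5p, as for miR-181d-5p and miR-181a-1-3p, and sedentary replicate 1 was the lowest for miR-451-5p and miR-181d-5p. The part of miR-486 in the values of the family was not tested beyond the change of scale given above, and that of miR-451-5p was not tested.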

How the data were processed

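The 4 libraries hold small RNA of serum Exos, grouped by the treatment label. Per the paper's methods the authors trimmed reads with cutadapt, kept short inserts, aligned them to mRatBN7.2 with an aligner named Bowtie2 (Bowtie per the labels), counted them with featureCounts on miRBase and deposited values named TPM. The deposited values are RPM without scaling for length. Other columns give family, sequence and length.

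limma 3.58.1 in R 4.3.3 was fitted to log2(RPM + 1) of the 178 miRNAs above 0 in at least 2 libraries, with a variance prior following mean expression. It was also run on simulated random counts with no further spread between libraries and planted changes larger than those of the members. That run does not show how limma performs at the spread and changes seen here. Tables and figures were made in Python 3.11.15. Count models were not used, because they need counts and the values were expected to be normalized only when the test was chosen. The recovered reads were used for shares, intervals and floors. As a check for a library deposited more than once, the libraries of a group were compared. They were not copies of each other, and each was counted as 1 sample.

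Members and lists were chosen with earlier results of these data known. The text names each listed arm, the 3 nearest profiles for each member above 0 in all libraries, and the most abundant miRNA of each marker list. List members at 0 and the called one are also named, chosen after their values were seen, as were miR-3570 and the non-member arm miR-181c-5p. Alternatives changed the pseudocount (0.1 or 10), filter, scaling, variance prior and replicate block, or left out each replicate.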

Additional observations from a re-analysis of the deposited data

How the results depend on the processing

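The number of members called was 0 under each alternative except the rescaling to the sum of the listed miRNAs, where 1 (miR-181a-5p, 1.16) was called, and it ranged from 0 to 1 with 1 replicate left out. With 1 replicate left out, where limma assumes that the lone library varies like the other group, the log2 fold changes ranged from 0.77 to 1.02 for miR-181a-5p, 0.69 to 1.09 for miR-181b-5p, -0.27 to 0.61 for miR-181d-5p and -1.66 to 0.18 for miR-181a-1-3p. The lowest of miR-181d-5p came without sedentary replicate 1 and the highest of miR-181a-1-3p without exercise replicate 2. Leaving out exercise replicate 1 or sedentary replicate 2 left miR-181a-1-3p above 0 in 1 library, and it was then not tested. The difference in the ratio of miR-181b-5p to miR-181a-5p turned sign with a pseudocount of 0.1 (0.021) and ranged from -0.34 to 0.31 with 1 replicate left out. The family share of the listed reads differed by 0.184 percentage points, and by 0.175 to 0.193 with 1 replicate left out. Of all tested miRNAs 14 were called, but 3 without the filter, which adds miRNAs to the adjustment (243 tested), and 0 with a single variance prior (44 by fold and unadjusted p), and 0 to 39 with 1 replicate left out: 0 without exercise replicate 1, 7 without exercise replicate 2, 30 without sedentary replicate 1 and 39 without sedentary replicate 2. Causes not named were not tested.

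Same-numbered libraries deviated from their group means with a correlation of -0.15 over 178 miRNAs. With 2 libraries a group, this value cannot show whether the replicate numbers mark pairs. With the replicate block, 18 miRNAs and 0 members were called, with log2 fold changes of 0.90 (miR-181a-5p), 0.89 (miR-181b-5p), 0.17 (miR-181d-5p) and -0.49 (miR-181a-1-3p). Crossing the block, an alternative added after the data were seen, gave 18 and 0 as well. For the passenger arms, a library at 0 reads allows up to 3 by counting error alone.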
